A study of Mus musculus with 30 samples.

Results

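The 9 genes of tryptophan, phenylalanine and tyrosine breakdown followed here in db/db mouse liver were Tdo2, Afmid, Kmo, Kynu and Haao of the kynurenine route, and Tat, Hpd, Hgd and Fah of the tyrosine route. All probes annotated to one of the 9 symbols were taken, whatever their signal. Of the 9 genes, 8 were among the 16593 named genes of the array, and these 8 had 14 of its 25697 probes, of which 7 were probes of Afmid. Hgd, the homogentisate dioxygenase, had no probe under its symbol and was not analysed here. Detection on at least 15 of 30 arrays was reached by 13 of the 14 probes and 7 of the genes, the exception being Tat.

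Male db/db mice of the strain BKS.Cg-m+/+Leprdb/J 000642, aged 6 to 8 weeks on arrival, before habituation and the feeding period, carry a defective leptin receptor and become obese and diabetic. The Ctrl group (n = 15) ate chow, and the SA15% group (n = 15) ate the same chow with sebacic acid, a dicarboxylic fatty acid, for 6 weeks. The dose was 77.6 g/kg food, stated as 15% of energy and in the labels as some 9 g daily per kg of body weight. Both groups were db/db, no lean mice were compared here, and 1 Illumina MouseRef-8 array per fasted liver gave an intensity for each probe and a p-value of its detection over negative controls.

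Tryptophan is degraded mainly in hepatocytes. Tdo2 opens the indole ring, Afmid removes the formyl group to give kynurenine, and Kmo, Kynu and Haao carry kynurenine towards quinolinate, a precursor of NAD. Phenylalanine is degraded by way of tyrosine, which Tat, Hpd, Hgd and Fah convert in turn to fumarate and acetoacetate, so that its carbon can enter both glucose and ketone bodies. Tdo2 and Tat are classical glucocorticoid-induced genes of the rat liver, and loss of FAH in humans causes hereditary tyrosinaemia.

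The start regions of the 4 members with the largest differences are shown, since these 4 passed the study's cut-off in the same direction on their brightest probes. Each stretch is the 150 bases before the start that the RefSeq promoter table gives for the gene (mouse build GRCm38.p6), written 5′ to 3′ on the coding strand, with capitals for any of the motifs searched. The Tdo2 stretch is chr3:81975729-81975878 on the minus strand, that of Afmid chr11:117825769-117825918 on the plus strand, that of Kmo chr1:175632043-175632192 on the plus strand and that of Hpd chr5:123182724-123182873 on the minus strand. The genes themselves span chr3:81958412-81975728 (Tdo2), chr11:117825503-117839908 (Afmid), chr1:175632193-175660853 (Kmo) and chr5:123171807-123182723 (Hpd), so that the 4 lie on different chromosomes. For Tdo2, Kmo and Hpd the stretch ends at the edge of the gene span, whereas the Afmid stretch lies inside its span, so that its positions are counted from a start within the annotated gene.
Tdo2: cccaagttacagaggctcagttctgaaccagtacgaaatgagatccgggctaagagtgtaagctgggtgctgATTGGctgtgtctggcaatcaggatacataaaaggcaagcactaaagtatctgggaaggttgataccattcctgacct
Afmid: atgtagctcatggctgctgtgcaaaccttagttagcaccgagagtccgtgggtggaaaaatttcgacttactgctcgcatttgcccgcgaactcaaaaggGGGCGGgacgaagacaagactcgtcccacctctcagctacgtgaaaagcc
Kmo: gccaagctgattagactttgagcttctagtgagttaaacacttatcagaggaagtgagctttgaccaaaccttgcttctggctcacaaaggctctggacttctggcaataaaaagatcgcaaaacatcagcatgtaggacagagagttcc
Hpd: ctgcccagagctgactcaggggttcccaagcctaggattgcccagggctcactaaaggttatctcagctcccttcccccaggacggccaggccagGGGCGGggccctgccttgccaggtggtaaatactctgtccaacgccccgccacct
Starts of 8 members were in the RefSeq table, the exception being Kynu. The 250 bases before these starts were searched on both strands, and no motif contains another. A CCAAT box (CCAAT) was present in Tdo2, Tat and Hgd, and in 33.8% of all 32851 promoters of that length. A GC box (GGGCGG) was present in Afmid, Hpd and Fah, and in 32.7% of promoters. A TATA box (TATAAA) was present in Tdo2 and Hgd, and in 12.4% of promoters. In Tdo2 the CCAAT match, in its reverse letters, lay at -78 to -74 from the start, while the TATA match at -229 to -224 lay upstream of the stretch shown. The GC box lay at -50 to -45 in Afmid and at -55 to -50 in Hpd. None of these motifs was in the Kmo region. The letters CAAAGTCCA of HNF4A (0.384% of promoters), TGTTTAC of forkhead factors (3.17%), TTGCNNCAA of C/EBP (1.74%) and TGACGTCA of CREB (1.55%) were in none of the 8. A match is a description of the letters and not a bound site.

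In SA15% livers 5 of the 7 detected members were lower than in Ctrl livers, Tdo2, Afmid, Hpd, Kmo and Haao, none was higher, and Kynu and Fah did not pass the test. The median log2 difference of the 7 was -0.39, beside -0.01 over all detected probes. Calls were common on these arrays: limma with Benjamini-Hochberg adjustment over 11329 detected probes called 36.6% of them in either direction at an adjusted p of 0.05, and 19.4% as lower. The split over all probes was 1942 higher and 2199 lower, and 769 higher and 3066 lower after median centring in place of quantile normalization. On their brightest probes, Tdo2, Afmid, Kmo and Hpd also passed the cut-off used in the study, a p of 0.001 and a fold of 1.3. Downward, 0.806% of all 25697 probes passed it. Some other Afmid probes, such as ILMN_2597013 at 0.790-fold, and the mean over its probes (log2 difference -0.32) did not reach that fold. In whole liver, fewer cells of a type and less RNA per cell cannot be told apart. Labels do not give a litter, a BeadChip or a day of hybridization, and the p-values measure the spread between the 15 mice of a group.

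**Figure D1:**
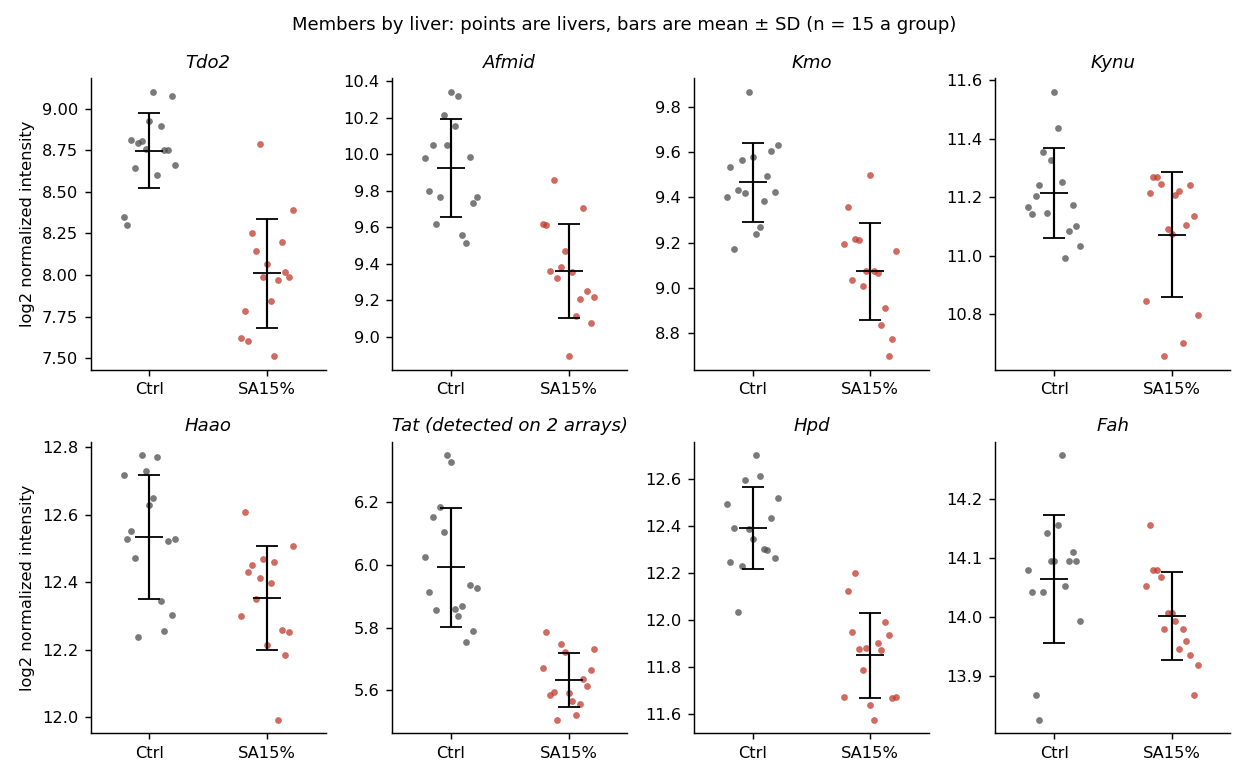
Log2 quantile-normalized intensity of 8 members (y axis, own scale in each panel) in each Ctrl and SA15% liver, with points in the order of the label numbers and bars for mean ± SD (n = 15 a group). Hpd and Tdo2 show the least overlap between the groups among the detected members, with 13 of 15 SA15% livers below every Ctrl liver for each, and Fah overlaps most, with none.

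Tdo2, whose enzyme takes the first and rate-limiting step of hepatic tryptophan breakdown, had the largest difference among the members. In Ctrl livers its log2 intensity ran from 8.30 over a median of 8.76 to 9.10, and in SA15% livers from 7.51 over 7.99 to 8.79. Of the 15 SA15% livers, 13 lay below every Ctrl liver, and 1, liver 6, lay above the Ctrl median. Before normalization the median intensity was 461 in Ctrl and 263 in SA15% livers. The mean was 8.75 ± 0.22 (SD, n = 15) in Ctrl and 8.01 ± 0.33 (SD, n = 15) in SA15% livers, a difference of -0.74 (standard error 0.10, adjusted p = 4.73e-07 from limma), or 0.600-fold (0.472 to 0.762, the interval that matches a p of 0.001, as for the folds that follow). Only 0.221% of detected probes had a difference as low or lower. Tdo2 also had the widest spread among the members in the SA15% group, with a coefficient of variation of 24.6% beside 15.0% in Ctrl livers, a difference in spread that was not tested. This spread includes liver 6 at 8.79, while the next highest SA15% value was 8.39, in liver 15.

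Afmid, the formamidase that follows Tdo2, was lower on its brightest probe (ILMN_2827607), which ran from 9.52 over 9.98 to 10.34 in Ctrl and from 8.89 over 9.36 to 9.86 in SA15% livers. Every SA15% liver was below the Ctrl median, and 11 were below every Ctrl liver. The difference was -0.56 (standard error 0.09, adjusted p = 1.19e-05 from limma), or 0.678-fold (0.542 to 0.849). All 7 Afmid probes are annotated to 1 transcript and all were detected on all 30 arrays, so they are repeat readings of one gene and not replicates. All 7 had a difference below 0, from -0.56 on the brightest probe to -0.09, and 5 of them passed the test. The 2 that did not were the dimmest of the set by Ctrl mean, ILMN_2702893 (-0.16, adjusted p = 0.0774 from limma) and ILMN_2702894 (-0.09, adjusted p = 0.423). Taken as the mean over the 7 probes, the difference was -0.32. Every other member with a probe had 1 probe, so that no such check was possible for it.

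Kmo, the monooxygenase of the outer mitochondrial membrane that hydroxylates kynurenine, ran from 9.17 over 9.43 to 9.87 in Ctrl and from 8.70 over 9.07 to 9.50 in SA15% livers. Of the SA15% livers 14 were below the Ctrl median and 10 were below every Ctrl liver. Its difference was -0.39 (standard error 0.07, adjusted p = 3.59e-05 from limma), or 0.761-fold (0.642 to 0.903).

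The last steps of the route differed less. Haao, which opens the ring of hydroxyanthranilate to give the precursor of quinolinate, ran from 12.24 over 12.53 to 12.78 in Ctrl and from 11.99 over 12.40 to 12.61 in SA15% livers. The groups overlapped widely, since 3 SA15% livers were below every Ctrl liver, but 14 of 15 lay under the Ctrl median. The difference was -0.18 (standard error 0.06, adjusted p = 0.0171 from limma), and 10.7% of detected probes had one as low or lower. Kynu, the kynureninase between Kmo and Haao, had a difference of -0.14 (95% interval -0.27 to -0.01, adjusted p = 0.0847) and did not pass. Its Ctrl livers ran from 10.99 over 11.17 to 11.56 and its SA15% livers from 10.66 over 11.13 to 11.27. The SA15% values had a gap: livers 6, 11, 15 and 1 lay between 10.66 and 10.84, below every Ctrl liver, and the other 11 began at 11.07, inside the Ctrl range. Kynu passed with pooled error, where a probe takes the variance of probes of similar brightness (adjusted p = 0.0173), and with median centring (adjusted p = 0.0026).

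Of the tyrosine route, Hpd differed most. Hpd, the dioxygenase that turns hydroxyphenylpyruvate into homogentisate, ran from 12.04 over 12.39 to 12.70 in Ctrl and from 11.58 over 11.88 to 12.20 in SA15% livers. The groups were nearly apart: 14 of 15 Ctrl livers were above every SA15% liver, and all SA15% livers were below the Ctrl median. The mean was 12.39 ± 0.17 (SD, n = 15) in Ctrl and 11.85 ± 0.18 (SD, n = 15) in SA15% livers, a difference of -0.54 (standard error 0.06, adjusted p = 6.11e-08 from limma), or 0.687-fold (0.588 to 0.803).

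Fah, the hydrolase that releases fumarate and acetoacetate at the end of the route, had a difference of -0.06 (95% interval -0.14 to 0.01, adjusted p = 0.184) and did not pass. Its Ctrl livers ran from 13.83 over 14.09 to 14.27 and its SA15% livers from 13.87 over 13.99 to 14.16, with 14 of 15 SA15% livers under the Ctrl median. Fah was read near the bright end of the scale, with a median intensity of 17019 in Ctrl livers. The highest intensity of any probe on an array was 25523 to 35474 in Ctrl and 33438 to 44013 in SA15% livers. It passed only after median centring (-0.16, adjusted p = 0.0099).

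Tat, which transfers the amino group of tyrosine, was above background on 2 of 15 Ctrl arrays and on none of the SA15% arrays, so that no fold was derived and it was not in the main test. Its measured means were 5.99 ± 0.19 (SD, n = 15) in Ctrl and 5.63 ± 0.08 (SD, n = 15) in SA15% livers, and 14 of 15 SA15% livers lay below every Ctrl liver. The detected arrays were those of Ctrl livers 7 and 8, the 2 highest values. Both means lay below 6.18, the mean over the SA15% arrays of the lowest level at which any probe was detected. The Tat probe was thus at background in both groups, and its direction was not called. As Tat was read on 1 probe, its RNA was not shown to be absent.

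**Figure D2:**
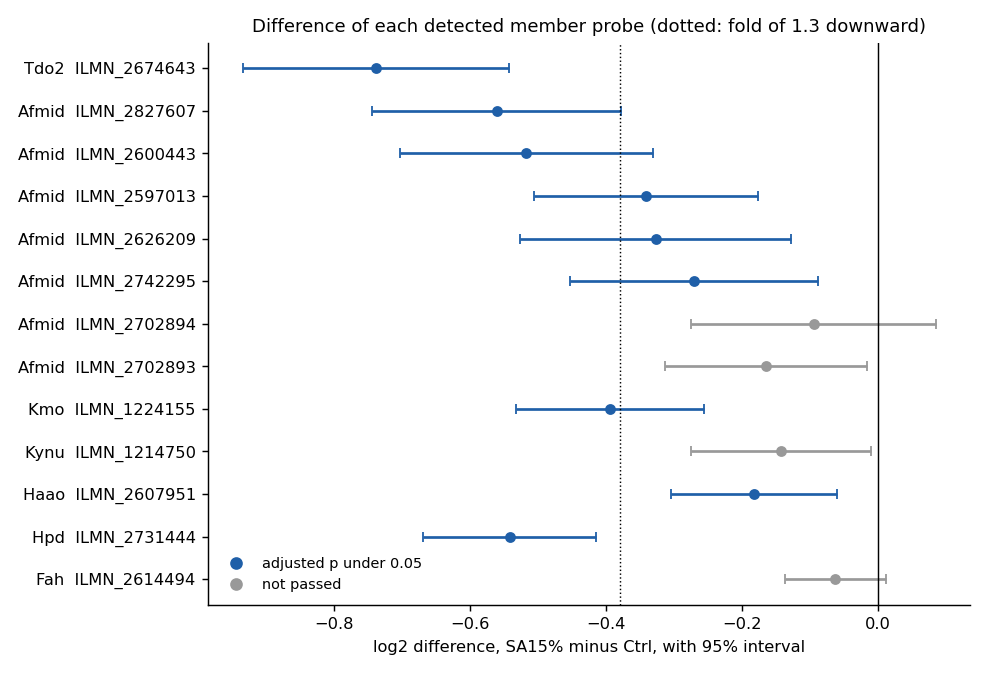
Log2 difference between SA15% and Ctrl livers (x axis, points with 95% interval) for the 13 detected probes of the members (y axis, in pathway order). Every point lies below 0, and the 2 dimmest Afmid probes, Kynu and Fah (grey) did not pass an adjusted p of 0.05.

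**Figure D3:**
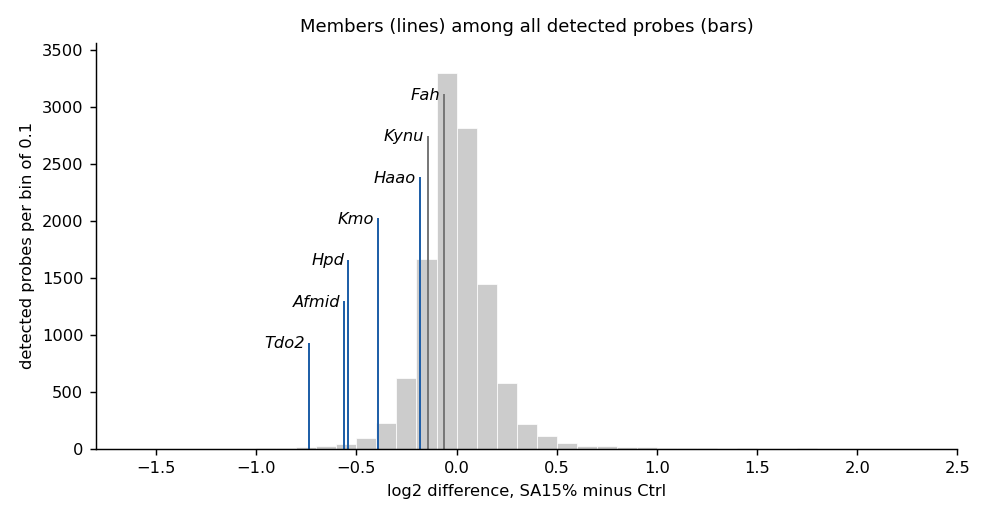
Number of detected probes (y axis) by log2 difference between SA15% and Ctrl livers (x axis, bins of 0.1), with lines at the brightest probe of each of the 7 detected members. Tdo2, Afmid and Hpd lie in the far lower tail, where at most 0.644% of the detected probes reach as low, and Fah lies in the tallest bin. For Afmid this holds for the brightest probe, and the mean over its probes was -0.32.

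The differences of the members were compared with one another. For each of the 21 pairs of detected members, the log2 ratio of the pair was taken in each liver and compared between the groups (two-sided permutation test, 100000 resamples, Benjamini-Hochberg over the 21 pairs). Past an adjusted p of 0.05 were 13 pairs: Tdo2, Afmid, Kmo and Hpd each against each of Kynu, Haao and Fah, and Tdo2 against Kmo. Tdo2 was lower by more than Kmo (-0.34, standard error 0.13, adjusted p = 0.0242 by permutation), than Haao (-0.56, standard error 0.13, adjusted p = 0.000525) and than Kynu (-0.60, standard error 0.14, adjusted p = 0.00056). Within the tyrosine route, the log2 difference of Hpd less that of Fah was -0.48 (standard error 0.05, adjusted p = 0.00014 by permutation). Tdo2, Afmid and Hpd did not pass against one another, with -0.18 (standard error 0.13) for Tdo2 less Afmid, -0.20 (standard error 0.12) for Tdo2 less Hpd and -0.02 (standard error 0.07) for Afmid less Hpd. Kynu, Haao and Fah did not pass against one another either. The pairs with Afmid depended on the probe: with the mean over its 7 probes, Afmid no longer passed against Kynu (-0.18, adjusted p = 0.0631 by permutation) or Haao (-0.14, adjusted p = 0.125), whereas Tdo2 less Afmid (-0.41, adjusted p = 0.0109) and Afmid less Hpd (0.22, adjusted p = 0.0109) then passed. With median centring Kmo less Kynu (adjusted p = 0.0627 by permutation) and Kmo less Haao (adjusted p = 0.0661) did not pass. This comparison was added after the values of the members had been seen.

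Within a group, r was above 0 in 16 of 21 pairs of members across Ctrl livers and in 15 of 21 across SA15% livers (n = 15 each). Of these 42 correlations 1 passed an adjusted p of 0.05, while with median centring 4 passed in Ctrl and 6 in SA15% livers. The permutation takes the livers of a group as exchangeable, and any variation shared between arrays was not taken out. Afmid and Haao varied together across Ctrl livers, with Pearson r = 0.82 (permutation p = 0.0003, adjusted p = 0.0130) and Spearman rho = 0.83 (adjusted p = 0.0122). Without the 2 livers farthest from the Afmid median r was 0.75, but with the mean over the 7 Afmid probes it was 0.46 (adjusted p = 0.302 by permutation). In SA15% livers the same pair had r = 0.36 (adjusted p = 0.524 by permutation), and the difference between the groups was not tested. Haao and Hpd in Ctrl livers passed by rank (rho = 0.75, adjusted p = 0.0393 by permutation) but not by Pearson r (0.66, adjusted p = 0.0834). Tdo2 had its highest r at 0.27 in either group, with Kynu in Ctrl livers, and its lowest at -0.46 (rho = -0.29), with Kynu in SA15% livers, and neither passed. SA15% liver 6, the highest in Tdo2, was the lowest in Kynu, and r of that pair was -0.10 without the 2 livers farthest from the Tdo2 median. SA15% liver 4 was the highest in both Afmid and Hpd. The median r was 0.13 in Ctrl and 0.25 in SA15% livers.

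**Figure D4:**
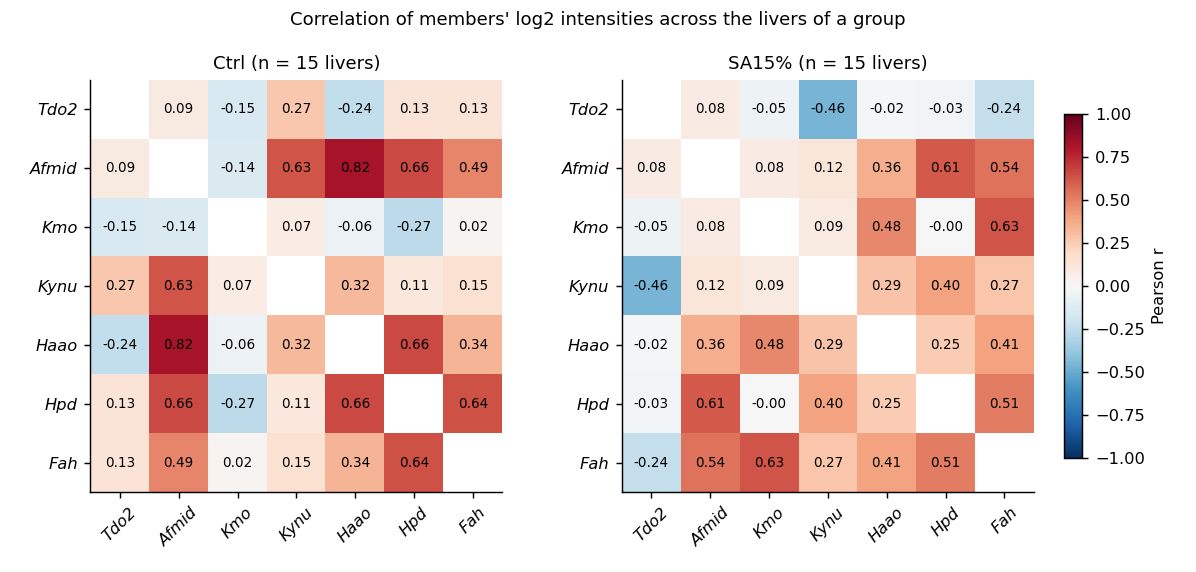
Pearson r between the log2 intensities of each pair of the 7 detected members across 15 Ctrl livers (left) and 15 SA15% livers (right), with colour from -1 (blue) to 1 (red). The darkest cell is Afmid with Haao in Ctrl livers at 0.82, and the Tdo2 row is pale in Ctrl livers.

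Over all 30 livers, with the group means taken out, the named genes whose pattern was most like that of Tdo2 among 10662 detected probes were Nup160, a nuclear pore protein (r = 0.65), Sucnr1, the succinate receptor (r = 0.62), and Setd3, a histidine methyltransferase of actin (r = 0.59). As the highest r of all probes searched, these values are a description with no test. Between the groups, Setd3 was lower by a log2 difference of -0.22 (adjusted p = 0.000747 from limma), whereas Nup160 (0.04) and Sucnr1 (0.09) did not pass.

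The genes around the members were mixed. Of 27 further genes of aromatic amino acid metabolism, 25 had a probe and 22 were detected. Of the 22, 6 were lower and 2 higher, while 14 did not pass, with a median log2 difference of -0.08. The share called was thus near the 36.6% called over all detected probes, where 19.4% were lower. After median centring 11 were lower and 2 higher. Aadat, an aminotransferase that turns kynurenine aside to kynurenate, was lower by a difference of -0.46 (standard error 0.07, adjusted p = 2.35e-06 from limma). Dhtkd1, of the dehydrogenase that degrades the ketoadipate formed from tryptophan and lysine, was lower on its brightest probe (-0.31) while another probe gave 0.05. Aldh3a2, a fatty aldehyde dehydrogenase, was higher (0.31, standard error 0.06, adjusted p = 0.000166 from limma), as was Slc7a5, a carrier of large neutral amino acids (0.23, standard error 0.05).

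Among the genes of tetrahydrobiopterin, an enzyme cofactor, Gch1, which makes its first intermediate, and Gchfr, the feedback regulator of that enzyme, were both lower (-0.23 and -0.26). Pcbd2, a recycling dehydratase, was lower as well (-0.15), as was Maob, a monoamine oxidase (-0.16). Qdpr (-0.07), Pts (0.04) and Spr (0.00) did not pass, nor did Gstz1, the isomerase between Hgd and Fah (0.01, standard error 0.04).

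Of 12 genes of NAD supply, from tryptophan and from other sources, 7 were detected. Among these, 1 was higher and 2 were lower, with a median of -0.08, while after median centring none was higher and 4 were lower. In the main test 36.6% of all detected probes were called, and 19.4% were lower. Qprt, which takes quinolinate into the NAD route, had a difference of 0.06 (standard error 0.08, adjusted p = 0.579 from limma). Nnmt, which methylates nicotinamide, was lower by a difference of -0.52 (standard error 0.10, adjusted p = 0.000187), and Nmrk1, a nicotinamide riboside kinase, by -0.17. Nadk, the NAD kinase, was higher (0.32), though not after median centring (0.18, adjusted p = 0.0901).

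Because Tdo2 and Tat respond to glucocorticoids in the rat, targets of that receptor were set beside them. Of 11 detected genes of 12, 5 passed as lower and 1 as higher, with a median of -0.18. Over all detected probes 36.6% were called in either direction, and 19.4% as lower. Fkbp5, a chaperone of the receptor and one of its most sensitive targets, was lower by a difference of -0.63 (standard error 0.10, adjusted p = 1.45e-05 from limma). Tsc22d3, also called GILZ, was lower on its brightest probe (-0.47), while another probe gave -0.10. Per1 (-0.32), Zfp36 (-0.28) and Angptl4 (-0.18) were lower, while Sgk1, a kinase induced by the same receptor, was higher (0.29, and 0.18 with adjusted p = 0.104 after median centring). Cdkn1a, a cell cycle inhibitor, had a difference of 0.48 (adjusted p = 0.0513 from limma) that missed the threshold, and passed with pooled error, the replicate block, a residual component as covariate and the filter of detection on all 30 arrays. Dusp1 (0.05), Mt1 (0.03) and Hsd11b1, which regenerates the active hormone (-0.06), did not pass, and the receptor gene Nr3c1 was not detected. Of 9 detected liver transcription factors 4 were lower and none was higher, with a median of -0.12, beside the same 19.4% of all detected probes lower. Hnf4a was lower by a difference of -0.30 (standard error 0.06, adjusted p = 8.69e-05 from limma). Cebpa, Cebpb and Nr5a2 had adjusted p-values between 0.0434 and 0.0464 from limma, and each fell short under at least 2 other settings. Thus 1 of the 9 was lower when all probes were tested, whereas 5 were lower with median centring and with pooled error. Another probe of Nr5a2 gave 0.07. The part of these regulators in the members' differences was not tested.

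**Figure D5:**
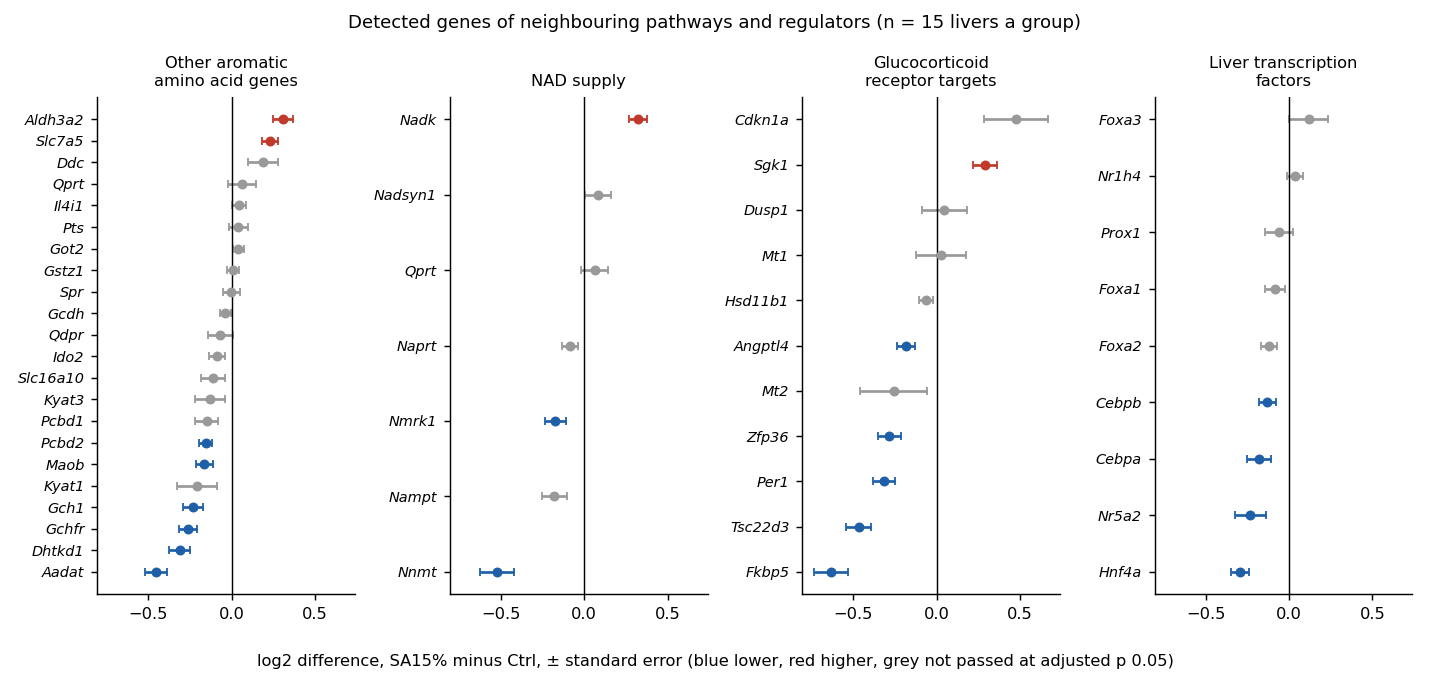
Log2 difference between SA15% and Ctrl livers with its standard error (x axis) for the detected genes of 4 lists (y axis), blue lower, red higher and grey not passed. Aadat, Nnmt, Fkbp5 and Hnf4a have the lowest value in their list, and genes on both sides of 0 appear in every list.

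Some marker lists of hepatocyte zones and of other cells held genes that differed between the groups, and others held no call. The counts stand beside 36.6% of all detected probes called in either direction, and 19.4% called as lower. Of 13 detected genes of 15 secreted hepatocyte proteins 5 were lower and 1 was higher, with a median of -0.01, whereas 5 were lower and 6 higher after median centring, and the probes of Alb and Fgb did not reach detection. Among the periportal markers, 9 of the 11 detected were lower and 0 higher (median -0.43, summed normalized intensity 60408 to 79358 in Ctrl and 47975 to 62332 in SA15% livers), and Pck1 and Fbp1 on that list are among the genes that the study itself reported from these arrays. Of 10 detected pericentral markers 4 were lower and 1, Cyp2e1, was higher (median -0.13, summed intensity 47916 to 61885 in Ctrl and 49476 to 62589 in SA15% livers), and 7 were lower after median centring. Of 11 detected Kupffer cell and macrophage markers 5 were higher and none was lower (median 0.36, summed intensity 1170 to 3041 in Ctrl and 1757 to 3812 in SA15% livers), with Cd5l, Trem2 and Itgam not detected. The number higher was 2 after median centring and 9 with pooled error. Of 9 endothelial markers 3 were higher, beside 1 higher and 1 lower after median centring and 6 higher with pooled error. Of 6 stellate markers none passed, and bile duct and lymphocyte lists had 1 detected gene each, neither of which passed. Of 4 red blood cell genes 3 were higher, with a summed intensity of 6004 to 13189 in Ctrl and 11727 to 21850 in SA15% livers. The part of these lists in the members' differences was not tested.

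Mean intensity ran from 314 to 451 on Ctrl arrays and from 327 to 498 on SA15% arrays, and 10984 to 11783 probes were detected on an array. Arrays of a group correlated at 0.983 to 0.996, and no 2 were duplicates. Precision depends on the number of arrays and on the spread of each probe between livers.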

How the data were processed

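Liver RNA of 15 Ctrl and 15 SA15% db/db mice was measured, 1 mouse per Illumina MouseRef-8 v1.1 array. The authors scanned the arrays and deposited for 25697 probes the mean bead intensity, neither normalized nor background corrected, with a detection p-value from the authors' scanner software (GenomeStudio 2009.2 per the submitters' processing notes). A second table holds the authors' quantile normalized intensity on a linear scale and served as an alternative. Here intensities were quantile normalized and log2 transformed, since the deposited values were not on the log2 scale, and probes detected (p-value under 0.05) on 15 or more of the 30 arrays were tested with limma 3.58.1 in R 4.3.3 (lmFit and eBayes, SA15% against Ctrl, no covariates, Benjamini-Hochberg over 11329 probes). This took the place of the study's ANOVA with a global error assessment, which was approximated by pooled error, with each variance replaced by the running median over 201 probes. Symbols are those of the platform annotation, renewed by Entrez identifier from RefSeq (GRCm38.p6): 23978 probes had 1 symbol and 1719 had none here. A gene was read on its brightest detected probe. Permutation tests used scipy 1.17.1. The code of the comparison between groups was tested on simulated data with independent noise.

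The members and lists were chosen with earlier results of these data known. Named are all members, up to 5 genes of a list with the smallest p among those past an adjusted p of 0.05, and the 3 genes most like Tdo2. Other list genes were named after their values were seen. Alternatives covered background correction (neqc, offset 16), median centring, the second table, filters, tests, a replicate block, a residual component, the probe rule and leaving out each array. The mice on 1.5% sebacic acid were not analysed here, and 1 withheld gene is not reported.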

Additional observations from a re-analysis of the deposited data

How the results depend on the processing

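Tdo2, Afmid, Kmo, Haao and Hpd stayed lower and past the threshold under each alternative run, with log2 differences of -0.86 to -0.74, -0.67 to -0.32, -0.50 to -0.39, -0.31 to -0.18 and -0.67 to -0.54. The count of lower members was 5 to 7, which with all probes tested included Tat at background. On their brightest probes, 4 members passed the study's cut-off with neqc, median centring and pooled error. The mean over the Afmid probes (-0.32) did not reach the fold of that cut-off. Kynu passed with median centring (-0.29), with pooled error (-0.14, adjusted p = 0.0173) and with the replicate block (-0.14, adjusted p = 0.0276), and Fah passed with median centring (-0.16); the cause was not tested. Leaving out each of the 30 arrays in turn changed no call of these 7 genes, with adjusted p = 0.0072 to 0.0315 for Haao, 0.0582 to 0.150 for Kynu and 0.0681 to 0.298 for Fah from limma. The count of correlated pairs moved from 1 to 4 in Ctrl livers and from 0 to 6 in SA15% livers with median centring, and the cause was not tested. Comparisons between members, added after seeing the data, gave 11 to 14 pairs of 21. With median centring, Kmo less Kynu (-0.21, adjusted p = 0.0627 by permutation) and Kmo less Haao (-0.18, adjusted p = 0.0661) no longer passed. With the mean over probes, also added after seeing the data, 0 pairs of members correlated in Ctrl livers, and Afmid less Kynu and Afmid less Haao no longer passed.

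Samples that share a number were not taken as pairs, since nothing in the labels ties them and not every same-numbered pair had a residual correlation over 0.1 (10 of 15, from -0.07 to 0.39). As a hint from the data, 10 of 30 arrays had their best residual correlation, among the 15 arrays of the other group, with their own number. Random matching among 15 arrays would give fewer. Whether same-numbered arrays share a source of variation was not tested, and the main test takes all livers as independent. With the number as a replicate block 6 members were lower, and the blocked difference of Tdo2 stayed at -0.74. A BeadChip block was not run, because the columns do not give the chip. Differences near background, as for Tat, are uncertain in size. Fah was read near the bright end of the scale, and whether this affected the size of its difference was not tested. Its standard error (0.04) was the lowest among the detected members.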
